A study of Mus musculus with 6 samples.

Results

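The nuclear genes of the mitochondrial respiratory chain and ATP synthase were followed in RNA-seq of freshly isolated oligodendrocyte precursor cells (OPCs). They were chosen by symbol, as every gene whose name starts with Nduf, Uqcr, Atp5 or Cox and a digit, together with the Sdh subunit genes a to d. The pattern found 104 of the 18211 genes in the table. By their usual assignment, 47 belong to complex I, 4 to complex II, 8 to complex III, 28 to complex IV and 17 to complex V. Of the 104 genes, 86 encode structural subunits, with their isoforms, paralogs and the supercomplex factor Cox7a2l counted among them. Another 17 encode factors that assemble complex I or IV, and Atp5s is a regulator of the ATP synthase. Levels are given as RPKM, a read count corrected for transcript length and sequencing depth. Testing required an RPKM of 0.5 or more in 3 or more of the 6 libraries, and 100 of the genes met this. Cox7b2, Cox8b, Ndufa11b and Ndufb4b did not, with at most 4.58 reads in any library.

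The respiratory chain sits in the inner mitochondrial membrane. Complexes I and II feed electrons from NADH and succinate to ubiquinone, complex III passes them to cytochrome c, and complex IV hands them to oxygen. Complexes I, III and IV pump protons, and complex V, the ATP synthase, uses the gradient to make ATP. Most subunits are encoded in the nucleus, and a small set of core subunits is encoded in mitochondrial DNA, which was not analysed here. Oligodendroglia need mitochondrial ATP and carbon as they grow, since membrane and myelin synthesis are costly.

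The study compared wildtype mice with DISC1-Δ3 mice, 3 libraries each, all of the C57BL/6 strain. DISC1-Δ3 mice carried NG2-CreERTM, a tamoxifen-activated Cre driven by the promoter of NG2 (Cspg4), and 1 floxed copy of DISC1 exon 3 (fl/+), so that recombination removes exon 3 from a single allele. NG2 is also known as a marker of pericytes, and recombination by cell type was not measured in these libraries. The wildtype mice carried no such Cre. Both groups received tamoxifen by gavage once a day from P4 to P7 and were killed at P7, when PDGFRα-positive cells were immunopanned. The labels do not say whether a library came from 1 mouse or a pool, so p-values measure the spread between these samples, which may be technical.

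The libraries held 13716619 to 16417219 reads assigned to genes. Disc1 itself had an RPKM of 3.51, 3.34 and 3.81 in the wildtype libraries and of 2.86, 2.44 and 2.85 in the DISC1-Δ3 libraries, a log2 fold change of -0.45 (SE 0.0885, edgeR's quasi-likelihood test, adjusted p = 0.000528). The value counts the whole gene and not exon 3 alone. The label of the cells was compared with cell type markers. All 10 OPC markers were detected, from Olig1 at a mean RPKM of 290.1 down to Vcan at 7.5, but markers of microglia stood higher, with C1qa at 2752 and a median over the 10 markers of 422 against 32.3 for the OPC markers. The summed RPKM of the OPC markers was 556 to 577 in wildtype and 707 to 728 in DISC1-Δ3 libraries, with 7 of 10 higher and 1 lower, while that of the microglial markers was 11895 to 12114 and 8393 to 8721, with 10 of 10 lower. The 5 erythroid markers were all higher, with a summed RPKM of 9343 to 9567 and 16648 to 18147. Neuronal (6 of 6) and pericyte and muscle markers (6 of 6) were higher as well, and markers of newly formed and mature oligodendrocytes lower (6 of 9). Endothelial markers were higher in part (3 of 5), and of the 6 astrocyte markers 5 were lower and 1 higher. These counts are of markers at an adjusted p under 0.05 by edgeR. Of all 13792 tested genes, 20.4% were higher and 19.5% lower at that threshold. Markers of several cell types thus differed between the genotypes, and the part of these shifts in the values below was not tested. In such bulk samples, fewer cells of a type and less RNA per cell cannot be told apart.

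Promoters are shown first, because many respiratory chain genes share binding motifs there. Transcription factors NRF1 and GABPA (NRF-2) are known regulators of nuclear respiratory genes. RefSeq windows of 300 bases (250 before and 50 after the start, GRCm38.p6) were matched for 84 of the 104 genes. The NRF1 motif was searched on both strands, like the others, as the letters GCGCA, any base and GCGC. Some genes have several windows, so a gene was counted when any of its windows held the letters. They stood in 22.6% of the 84 genes, against 10.8% of the 10964 tested genes with a window and 5.19% of all 27025 genes with a window. The GABPA letters CCGGAAG stood in 27.4%, against 18.6% and 9.93%, and the YY1 letters AAGATGGCG in 10.7%, against 3.27% and 1.64%. The shares of NRF1, GABPA and YY1 letters were thus higher among the respiratory chain genes than among tested genes. The TATA box letters TATAAA stood in 9.52%, against 8.97% and 15.7%. The TCF/LEF letters CTTTGAT, a motif of Wnt signalling, stood in 1 gene (1.19%), against 2.98% and 4.29%. The overlap between motifs in these letters was not removed, and a match is a description of letters only.

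The 250 bases before the start are printed for 4 genes that passed the threshold below and that carry such letters, 5′ to 3′ on the strand of the gene, with the motif letters in capitals. Ndufb4 (chr16:37654369-37654618, minus strand) holds 3 NRF1 matches, Ndufaf4 (chr4:24897833-24898082, plus strand) and Atp5g2 (chr15:102671048-102671297, minus strand) hold 1 each, and Cox10 (chr11:64079473-64079722, minus strand) holds a GABPA match after a TATA box match on the opposite strand. Ndufb4 and Ndufaf4 were higher in DISC1-Δ3 libraries and Atp5g2 and Cox10 were lower, so NRF1 letters stood before genes of both directions.
Ndufb4: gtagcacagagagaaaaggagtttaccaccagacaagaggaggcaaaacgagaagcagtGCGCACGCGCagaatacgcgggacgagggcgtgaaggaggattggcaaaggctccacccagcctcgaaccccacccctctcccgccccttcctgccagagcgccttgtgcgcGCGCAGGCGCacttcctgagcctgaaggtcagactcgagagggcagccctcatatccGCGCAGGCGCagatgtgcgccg
Ndufaf4: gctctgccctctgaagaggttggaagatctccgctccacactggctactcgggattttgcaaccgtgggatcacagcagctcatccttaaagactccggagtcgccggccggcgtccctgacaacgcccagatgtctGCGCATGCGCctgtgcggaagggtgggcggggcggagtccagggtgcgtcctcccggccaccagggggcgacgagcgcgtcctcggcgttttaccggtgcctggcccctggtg
Atp5g2: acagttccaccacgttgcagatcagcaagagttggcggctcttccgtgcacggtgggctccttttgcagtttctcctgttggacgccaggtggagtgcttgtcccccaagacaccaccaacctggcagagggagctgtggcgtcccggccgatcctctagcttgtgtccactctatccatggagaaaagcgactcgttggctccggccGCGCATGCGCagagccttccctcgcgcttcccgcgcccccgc
Cox10: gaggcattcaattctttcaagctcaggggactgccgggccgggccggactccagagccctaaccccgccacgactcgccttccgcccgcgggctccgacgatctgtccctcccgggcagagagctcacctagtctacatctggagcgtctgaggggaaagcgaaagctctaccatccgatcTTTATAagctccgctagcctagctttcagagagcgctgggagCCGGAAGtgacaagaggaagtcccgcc

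Most respiratory chain genes differed little between the genotypes. At an adjusted p under 0.05 in edgeR's quasi-likelihood test, 14 of the 100 tested genes were higher in DISC1-Δ3 libraries, 3 were lower and 83 did not pass. These 17.0% stand beside a background of 39.9% of all 13792 tested genes, of which 20.4% were higher and 19.5% lower. The median log2 fold change of the respiratory chain genes was 0.07, against 0.01 for all tested genes, and the median of its size was 0.09 against 0.19. Of the 100 genes, 70 had a fitted value above 0, against 7040 of all 13792 tested genes, and 89 had a 95% interval that lay within 1.5-fold of no change, against 70.3%. In CPM, counts scaled to library size with TMM factors, the 2 groups did not overlap for 26 of the 100 genes, against a background of 49.6%. At a mean RPKM of 100 or more, where counting error is small, 8 of 47 respiratory chain genes passed (6 higher, 2 lower), against 115 higher and 358 lower of 816 tested genes at that level (58.0%).

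The count depended on single libraries and on the scaling between libraries. Without wildtype replicate 1 it was 6 higher and 2 lower, without DISC1-Δ3 replicate 1 or replicate 2 it was 5 and 3, and without DISC1-Δ3 replicate 3 it was 24 and 3. These were 8.0%, 8.0%, 8.0% and 27.0% of the 100 genes in turn. Of all tested genes 33.6%, 34.7%, 33.1% and 45.2% passed in the same fits. With median-of-ratios scaling Atp5a1, Atp5j2, Ndufa4 and Ndufb2 did not pass (adjusted p = 0.0527 to 0.0858), nor did Atp5a1 and Ndufb2 with no filter (adjusted p = 0.0716 and 0.0712). DESeq2 gave 6 higher and 3 lower (9.0%, against 33.4% of all tested genes). Atp5j2, Cox19, Cox7c, Ndufa4, Ndufa4l2, Ndufaf4, Ndufb2 and Ndufs7 did not pass there. Scaling by RPKM sums in place of TMM factors gave 43 higher and 1 lower, so that 97.7% of the calls were higher in place of 82.4%. Here 44.0% of the respiratory chain genes passed, against 42.4% of all tested genes (4092 higher, 1753 lower). With both limma fits 47.0% passed, against 41.7% and 41.5% of all tested genes. The lower share of calls than among all tested genes thus did not hold in these fits. Scaling by RPKM sums also moved the median of all tested genes to 0.09 and that of the respiratory chain genes to 0.15. The distance between these medians was 0.06 under both scalings. All 17 genes kept their sign under all 15 alternatives, and Atp5b, Cox11, Cox6b2, Cox7a2l and Ndufaf5 passed the threshold in every one of them.

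**Figure D1:**
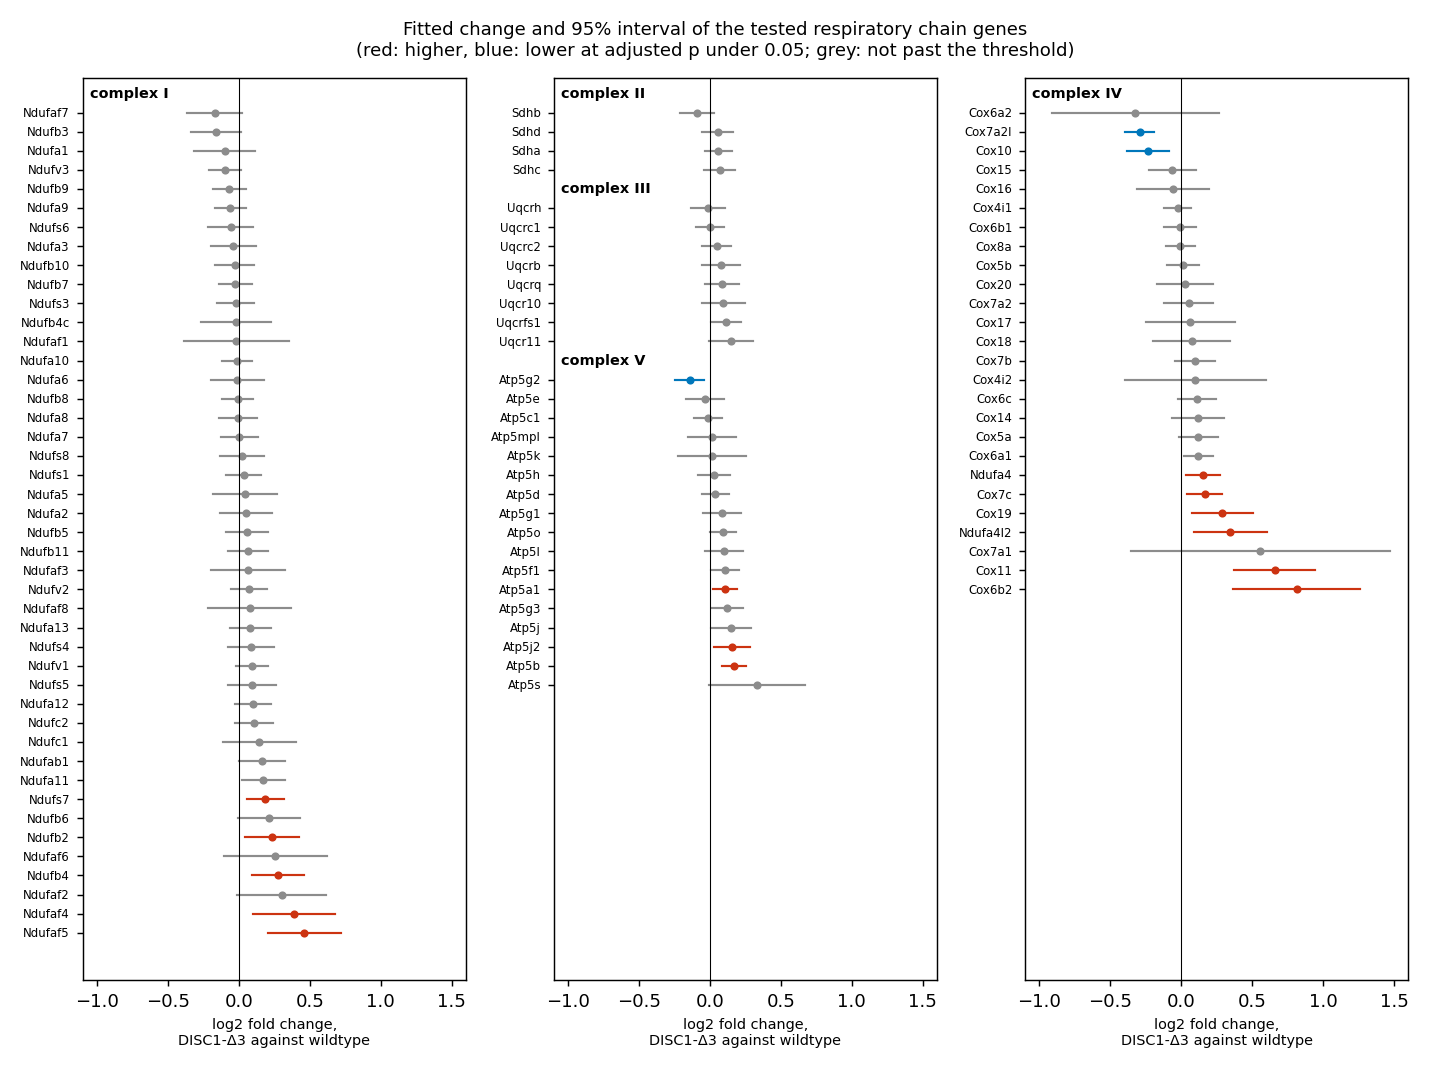
Fitted log2 fold change of DISC1-Δ3 against wildtype (points, horizontal axis) with its 95% interval (lines) for the tested genes, by complex, ordered by value. The 14 genes in red were higher, the 3 in blue lower, and the grey ones did not pass. Most points lie close to 0, with the widest values in complex IV, from -0.32 for Cox6a2 to 0.82 for Cox6b2.

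**Figure D2:**
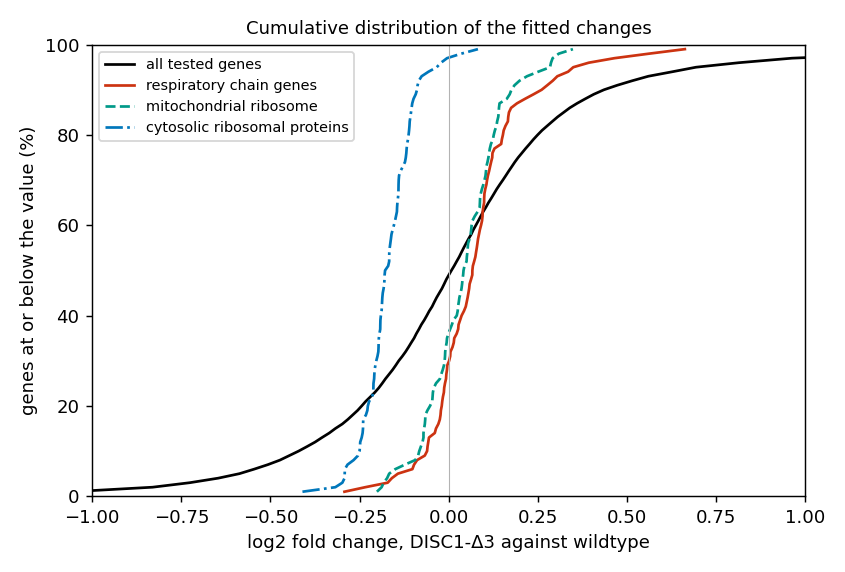
Percent of genes (vertical axis) at or below each fitted log2 fold change (horizontal axis) for all tested genes, the respiratory chain genes, the mitochondrial ribosome genes and the cytosolic ribosomal protein genes. The curve of the respiratory chain genes is steeper than that of all tested genes and its median lies at 0.07, while that of the cytosolic ribosomal protein genes lies at -0.18.

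By level, the respiratory chain genes were among the abundant messages of these libraries, with a median mean RPKM of 89.9 against 8.84 for all tested genes. Of the 104 genes, 47 were at or over an RPKM of 100, 41 lay between 10 and 100 and 16 were under 10. The highest was Cox4i1, the widely expressed form of subunit 4 of cytochrome c oxidase, at 867 RPKM, followed by Cox6a1 at 764, Cox8a at 742, Atp5b at 585 and Atp5g2 at 505. Within complex IV, the widely expressed subunits had a median of 332 RPKM, the assembly factors of 16.05 and the restricted isoforms of 3.28. The same order of subunits over assembly factors held in complex I, with medians of 83.5 for the core subunits, 93.8 for the accessory subunits and 9.40 for the assembly factors. Transcripts of these genes are short, with a median length implied by counts and RPKM of 578 bases against 2696 for all tested genes, and 89 of the 100 were among the 3437 shortest of the tested genes, up to 1668 bases. Of those 3437 genes 32.0% passed the threshold, and their median log2 fold change was 0.02.

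Complex I, the NADH dehydrogenase, had 45 tested genes, of which 5 were higher and none lower by edgeR (11.1%, beside the background of 39.9%). At an unadjusted p under 0.05 complex I had 7 higher and 0 lower. Its 7 core subunits, which carry the flavin and iron-sulfur clusters, held 1 of the 5. This was Ndufs7 (chr10:80249105-80256794), the subunit of the last iron-sulfur cluster before ubiquinone, with an RPKM of 81.52, 81.36 and 75.97 in wildtype and of 94.89, 97.59 and 93.12 in DISC1-Δ3 libraries. Its log2 fold change was 0.19 (SE 0.0612, edgeR adjusted p = 0.0207). All DISC1-Δ3 libraries lay above all wildtype libraries for Ndufs7, which did not pass without wildtype replicate 3 or without DISC1-Δ3 replicate 1 or 2 (adjusted p = 0.102, 0.0793 and 0.127). The other core subunits did not pass, among them Ndufs1 with a log2 fold change of 0.03. The values were -0.02 for Ndufs3, 0.03 for Ndufs8, 0.09 for Ndufv1 and 0.08 for Ndufv2. Without DISC1-Δ3 replicate 3 Ndufv1 passed, at 0.13 (adjusted p = 0.0394).

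Of the 29 accessory subunits of complex I, which surround the core, 2 passed (6.9%, beside the background of 39.9%). Ndufb4 (chr16:37647602-37654368), of the membrane arm, had an RPKM of 79.94, 96.99 and 89.61 in wildtype and of 113.20, 119.54 and 108.06 in DISC1-Δ3 libraries, a log2 fold change of 0.27 (SE 0.0873, edgeR adjusted p = 0.0184). Some of its reads were divided between genes in the deposited counts, and the paralog Ndufb4c had -0.02 (adjusted p = 0.911), so the value of each is uncertain. Ndufb2, also of the membrane arm, had an RPKM of 48.95, 47.14 and 52.96 and of 63.51, 60.79 and 60.45, a log2 fold change of 0.24 (SE 0.0906, adjusted p = 0.0475). The groups did not overlap for Ndufb4 or Ndufb2 on the RPKM scale. Ndufb4 did not pass without wildtype replicate 1 or 3 or without DISC1-Δ3 replicate 1 or 2 (adjusted p = 0.0547 to 0.108), nor Ndufb2 without wildtype replicate 1 or 2 or the same DISC1-Δ3 replicates (adjusted p = 0.131 to 0.171). Ndufb2 lost its call in 8 of the 15 alternatives. The most abundant accessory subunit, Ndufb8, had a mean RPKM of 213 ± 12.6 (SD, n = 3) in wildtype and of 223 ± 3.07 in DISC1-Δ3 libraries, and a log2 fold change of -0.01.

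The assembly factors of complex I, which build the complex and are not part of it, were present at low levels, and 2 of 8 were higher. This count stands beside a background of 20.4% of all tested genes that were higher and 39.9% that passed in either direction. Ndufaf5 (chr2:140170584-140218965), a hydroxylase that modifies Ndufs7, had an RPKM of 8.72, 9.17 and 7.57 in wildtype libraries and of 11.48, 11.37 and 14.77 in DISC1-Δ3 libraries. It rose 1.38-fold, a log2 fold change of 0.46 (SE 0.121, edgeR adjusted p = 0.00569), with DISC1-Δ3 replicate 3 the highest. Ndufaf4 (chr4:24898083-24905001), an early assembly factor, had an RPKM of 1.57, 2.01 and 2.02 and of 2.41, 2.73 and 2.64, a log2 fold change of 0.39 (SE 0.138, adjusted p = 0.0321). Both genes had every DISC1-Δ3 library above every wildtype library, and Ndufaf4 did not pass without wildtype replicate 1 or DISC1-Δ3 replicate 2 (adjusted p = 0.139 and 0.121). Ndufaf2 and Ndufaf6 had values of 0.30 and 0.26 without passing (adjusted p = 0.117 and 0.246), and Ndufaf8, the most abundant of the 8, had 0.08.

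Complexes II and III had no gene past the threshold by edgeR, and at an unadjusted p under 0.05 complex II had 0 and complex III 1, Uqcrfs1. With DESeq2, median-of-ratios scaling or any library left out, none of the succinate dehydrogenase genes passed, while Sdha, Sdhc and Sdhd were higher with both limma fits and under scaling by RPKM sums. Succinate dehydrogenase links the TCA cycle to the chain. Sdha, its flavoprotein, had a mean RPKM of 63.4 ± 0.350 (SD, n = 3) in wildtype and of 69.9 ± 2.59 in DISC1-Δ3 libraries, a log2 fold change of 0.06 with a 95% interval of -0.04 to 0.15. Sdhb, the iron-sulfur subunit, had -0.09, and the membrane anchors Sdhc and Sdhd had 0.07 and 0.06. Of the 8 complex III genes, Uqcrfs1, the Rieske iron-sulfur protein, had an RPKM of 67.33, 70.16 and 69.89 and of 78.30, 78.81 and 80.42, a log2 fold change of 0.12 (edgeR adjusted p = 0.0794). The groups did not overlap for Uqcrfs1, which passed with both limma fits and under scaling by RPKM sums. The large core proteins Uqcrc1 and Uqcrc2 had 0.00 and 0.05, and Uqcr11, the most abundant gene of the complex, had 0.15 (adjusted p = 0.119) and passed without DISC1-Δ3 replicate 3, at 0.19 (adjusted p = 0.0251).

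Complex IV, cytochrome c oxidase, had the widest values, and 6 of its 26 tested genes were higher and 2 lower (30.8%, beside the background of 39.9%). Both ends of that range were restricted isoforms, and the 11 widely expressed subunits ran from -0.02 to 0.17. Among the 11 widely expressed subunits, Cox7c and Ndufa4 were higher. Cox7c, a small subunit, had an RPKM of 304.73, 319.51 and 289.30 in wildtype and of 380.38, 347.00 and 351.46 in DISC1-Δ3 libraries, a log2 fold change of 0.17 (SE 0.0590, edgeR adjusted p = 0.0330). Ndufa4, named for complex I but now counted as a subunit of complex IV, had an RPKM of 246.03, 273.37 and 269.65 and of 304.46, 311.50 and 309.45, a log2 fold change of 0.15 (SE 0.0560, adjusted p = 0.0374). The groups did not overlap on the RPKM scale for either, but they did for Cox7c in CPM with TMM factors. Without wildtype replicate 1 or 3 or without DISC1-Δ3 replicate 1 or 2, neither passed (adjusted p = 0.0669 to 0.256 for Cox7c and 0.0633 to 0.179 for Ndufa4). The most abundant subunits had values closer to 0. Cox4i1 had -0.02, Cox6b1 -0.01 and Cox8a 0.00, and Cox6a1 had 0.12 (adjusted p = 0.0530), which passed in 7 of the 15 alternatives. Cox5a had 0.12 (adjusted p = 0.145), which passed in 4 of them. Both were among the genes that passed without DISC1-Δ3 replicate 3, at 0.16 each.

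Cox7a2l (chr17:83501917-83514333) had the lowest adjusted p of all the respiratory chain genes. It is classed as a factor of supercomplexes of III and IV, and its activity in these mice was not measured. Its RPKM was 241.18, 256.97 and 269.45 in wildtype libraries and 216.41, 221.41 and 224.98 in DISC1-Δ3 libraries, so every DISC1-Δ3 library lay below every wildtype library. Its log2 fold change was -0.29 (SE 0.0477, edgeR adjusted p = 9.03e-05), and across the alternatives it ran from -0.34 to -0.21. Cox10 (chr11:63962627-64079472), which makes the heme A precursor of the oxidase, was also lower, with an RPKM of 14.91, 13.83 and 14.03 and of 12.70, 13.37 and 12.33. Its log2 fold change was -0.23 (SE 0.0699, adjusted p = 0.0133). It lost its call in both limma fits, under scaling by RPKM sums and without wildtype replicate 1 (adjusted p = 0.0557), with adjusted p-values of up to 0.108.

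Of the other assembly factors of complex IV, Cox11 and Cox19, which both serve copper delivery to the oxidase, were higher. Cox11 (chr11:90638184-90645977) had an RPKM of 2.86, 2.97 and 2.82 in wildtype and of 4.49, 5.50 and 4.43 in DISC1-Δ3 libraries, 1.58-fold higher with a log2 fold change of 0.66 (SE 0.136, edgeR adjusted p = 0.000829). Cox11 shares 688 of its 1423 exon bases with Tom1l1 on the opposite strand, which was itself higher by 1.22 on the log2 scale (adjusted p = 3.34e-09) at a mean RPKM of 17.9. Whether counting used the strand is not given in the sources used here, and some Cox11 reads were divided between genes, so reads of Cox11 and Tom1l1 cannot be told apart. Cox19 (chr5:139337822-139345166) had an RPKM of 17.09, 18.32 and 18.97 and of 23.76, 23.64 and 22.97, a log2 fold change of 0.29 (SE 0.102, adjusted p = 0.0313). The 3 DISC1-Δ3 libraries lay close together above the wildtype libraries for Cox19, which did not pass without wildtype replicate 1 or 2 or without DISC1-Δ3 replicate 1 or 2 (adjusted p = 0.0685 to 0.111). Cox20, the most abundant assembly factor of the complex, had 0.03.

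Several subunits of complex IV have isoforms that replace the common form in certain tissues or conditions, and these were scarce. Cox6b2, the testis isoform of subunit 6b, had the largest rise of all the respiratory chain genes. It was counted with 32, 33 and 27 reads in wildtype against 50, 54 and 68 reads in DISC1-Δ3 libraries, an RPKM of 5.97, 5.01 and 4.22 against 8.64, 8.90 and 10.56. It was 1.76-fold higher, with a log2 fold change of 0.82 (SE 0.213, edgeR adjusted p = 0.00538). Beside its common counterpart Cox6b1 at a mean RPKM of 429, Cox6b2 made up 1.202% ± 0.252 (SD, n = 3) of their summed RPKM in wildtype and 2.09% ± 0.254 in DISC1-Δ3 libraries. So even where it was highest the common form made up nearly all of the pair.

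Ndufa4l2, a form of Ndufa4 known to be induced by hypoxia, had an RPKM of 10.16, 12.07 and 10.03 in wildtype and of 14.71, 13.15 and 15.63 in DISC1-Δ3 libraries, a log2 fold change of 0.35 (SE 0.122, edgeR adjusted p = 0.0306). It did not pass without wildtype replicate 1 or 3 or DISC1-Δ3 replicate 1 or 3 (adjusted p = 0.0661 to 0.119). Pericyte and muscle markers (6 of 6) were higher in the DISC1-Δ3 libraries too. Their part in the value of Ndufa4l2 was not tested, and hypoxia was not measured here. Beside Ndufa4, which was higher too, the share of Ndufa4l2 in the pair was 3.93% ± 0.323 (SD, n = 3) in wildtype and 4.49% ± 0.393 in DISC1-Δ3 libraries. Cox4i2, the hypoxia-linked form of subunit 4, did not pass, with an RPKM of 5.82, 4.87 and 2.94 against 5.27, 4.56 and 5.46 and a log2 fold change of 0.10 (adjusted p = 0.765). The muscle and heart isoforms Cox7a1 and Cox6a2 had values of 0.56 and -0.32 with wide intervals, of -0.35 to 1.47 and of -0.91 to 0.26. Cox7a1 had an RPKM of 1.68, 2.67 and 3.30 against 4.01, 5.77 and 2.26, so that its groups overlapped. Cox6a2 had an RPKM of 2.30, 3.52 and 3.69 against 2.57, 3.00 and 2.55, which overlapped as well. Cox8b was counted with 0, 0 and 0 reads against 2, 1 and 0, and Cox7b2 with at most 1 read in any library, at or under a floor of 3 reads, so no difference was detectable at this depth.

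**Figure D3:**
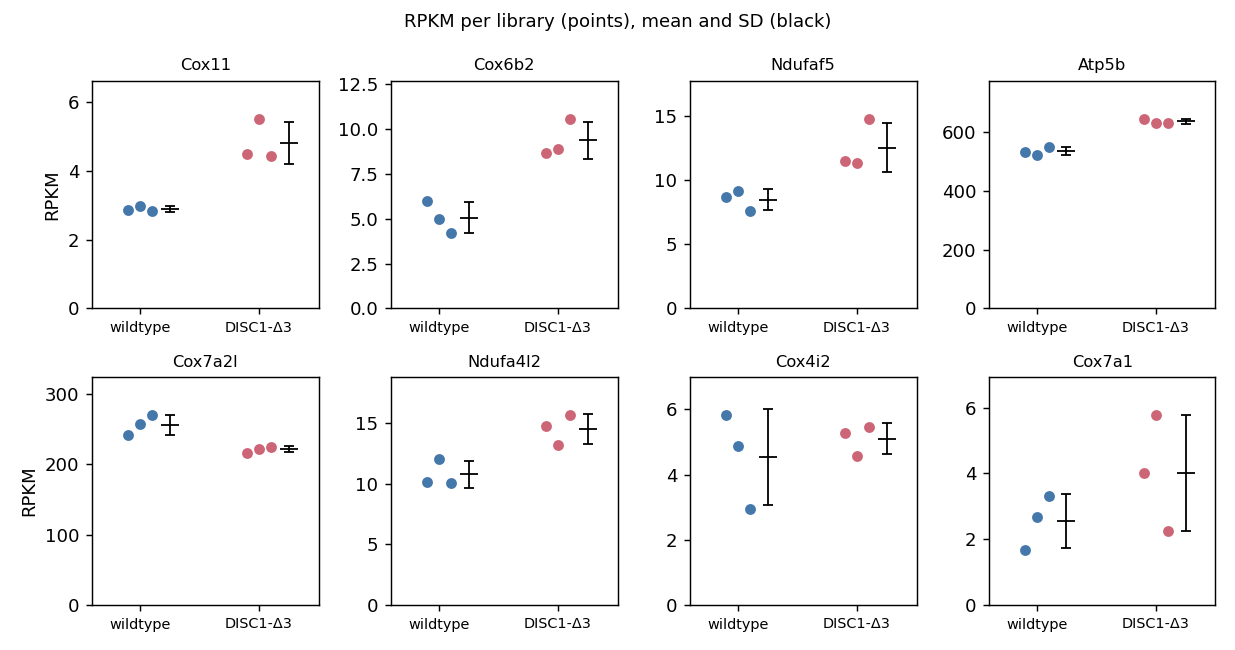
RPKM (vertical axes, from 0) of 8 genes in each library (points, wildtype in blue and DISC1-Δ3 in red), with the mean and SD of each group in black. The groups stand apart for Cox11, Cox6b2, Ndufaf5, Atp5b and Ndufa4l2, Cox7a2l is the one gene shown that lies lower in DISC1-Δ3 libraries, and the groups overlap for Cox4i2 and Cox7a1.

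Complex V, the ATP synthase, had 17 tested genes, of which 3 were higher and 1 lower (23.5%, beside the background of 39.9%). Atp5b (chr10:128083307-128090388), the catalytic beta subunit, had an RPKM of 531.89, 523.25 and 549.82 in wildtype and of 644.20, 631.69 and 630.95 in DISC1-Δ3 libraries. Its log2 fold change was small but well measured, 0.17 (SE 0.0405, edgeR adjusted p = 0.00301). Atp5a1, the alpha subunit that alternates with beta in the F1 head, had an RPKM of 303.56, 310.49 and 311.12 and of 348.45, 351.61 and 353.86, a log2 fold change of 0.11 (SE 0.0392, adjusted p = 0.0379), and lost its call in 8 of the 15 alternatives, among them every one that left out a library other than DISC1-Δ3 replicate 3 (adjusted p = 0.0839 to 0.241). Atp5j2, the f subunit of the membrane part, had an RPKM of 245.67, 274.82 and 282.72 and of 302.32, 313.92 and 328.94, a log2 fold change of 0.16 (SE 0.0596, adjusted p = 0.0435). These 3 genes had every DISC1-Δ3 library above every wildtype library. Atp5j2 passed with wildtype replicate 3 left out, and with none of the other 5 libraries left out (adjusted p = 0.0521 to 0.218).

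Atp5g2 encodes the c subunit of the rotor ring, as do Atp5g1 and Atp5g3, and it is the most abundant of these 3 genes. Its RPKM was 496.63, 520.76 and 531.72 in wildtype against 501.55, 506.05 and 473.43 in DISC1-Δ3 libraries, which overlap, while its CPM with TMM factors did not. Its log2 fold change was -0.14 (SE 0.0491, edgeR adjusted p = 0.0286), with adjusted p-values of up to 0.314 across the alternatives, and it lost its call in 6 of them, including those without wildtype replicate 2 or 3 or DISC1-Δ3 replicate 3 (adjusted p = 0.122, 0.132 and 0.05503). Atp5o, the most abundant gene of the peripheral stalk, had 0.09 (adjusted p = 0.108), and Atp5s, a low-level regulator, had 0.33 (adjusted p = 0.109).

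Summed over genes, the level of each complex was compared between libraries. The RPKM of all 104 genes summed to 13571, 14147 and 14340 in wildtype and to 15486, 15292 and 14991 in DISC1-Δ3 libraries, 8.82% higher, and the groups did not overlap. The sums of the 5 complexes were higher by 7.92% for complex I, 7.30% for II, 10.6% for III, 8.32% for IV and 9.85% for V, also without overlap. For each of these sums the exact two-sided permutation test gave p = 0.1, the smallest value that 3 against 3 libraries allow. In CPM with TMM factors the summed difference was 3.67% with overlapping groups (exact permutation p = 0.3), and by complex it was 2.71%, 2.32%, 3.73% and 0.951% with overlap for I to IV, and 6.28% without overlap for V (exact permutation p = 0.1). The groups thus stood apart for every complex in RPKM and for the ATP synthase alone in CPM with TMM factors. The 2 sums differ in library scaling and in the weight of transcript length. For all genes together and for complexes I and IV they also differ in the 4 genes that were not tested. Those genes had a mean RPKM of 0.265 or less each. Which of these differences mattered was not tested. The TMM factors were 0.970 to 0.973 in wildtype and 1.02 to 1.04 in DISC1-Δ3 libraries.

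**Figure D4:**
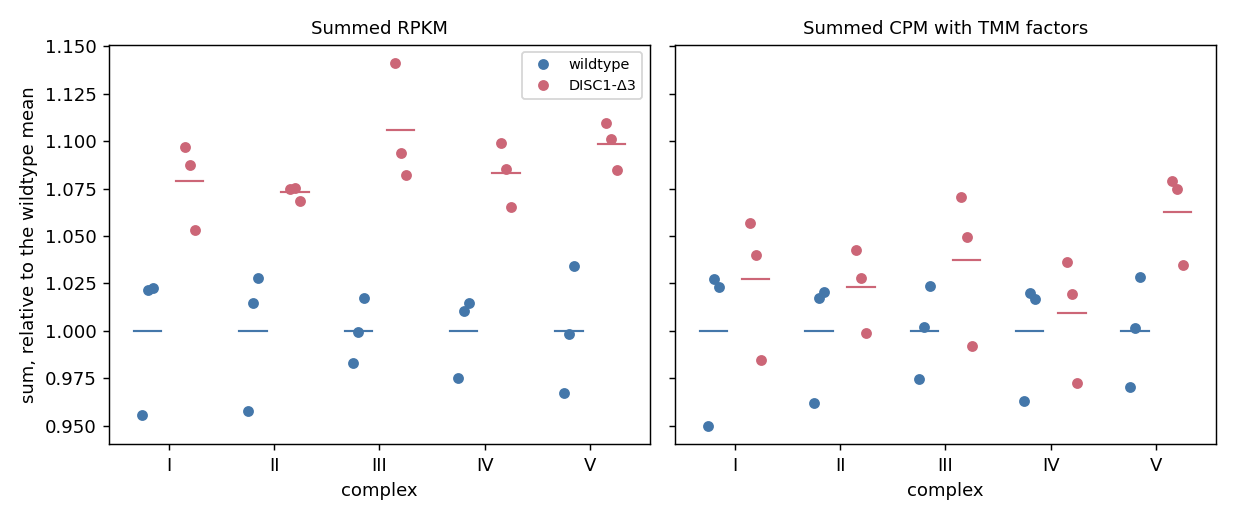
Sum over the genes of each complex in each library, divided by the wildtype mean (vertical axis, which does not start at 0), as RPKM on the left and as CPM with TMM factors on the right, with group means as lines. On the left all DISC1-Δ3 points lie above all wildtype points, and on the right this holds for complex V alone.

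The libraries of a group were not alike in these genes. Relative to the wildtype mean and with TMM factors, the median deviation of the 100 genes was -0.07, 0.03 and 0.04 (log2) in the wildtype libraries and 0.10, 0.08 and 0.01 in the DISC1-Δ3 libraries. Of the 100 genes, 20, 78 and 72 lay above the wildtype mean in the 3 wildtype libraries and 76, 74 and 54 in the 3 DISC1-Δ3 libraries. Wildtype replicate 1 was the low library and DISC1-Δ3 replicate 3 was close to the wildtype replicates 2 and 3. Over all tested genes these medians stayed within 0.03 of 0. DISC1-Δ3 replicate 3 also differed more from its group than other pairs did, as its reads gave chi-squares of 5.39 and 4.99 per degree of freedom against 1.80 to 2.97 in the other replicate pairs.

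**Figure D5:**
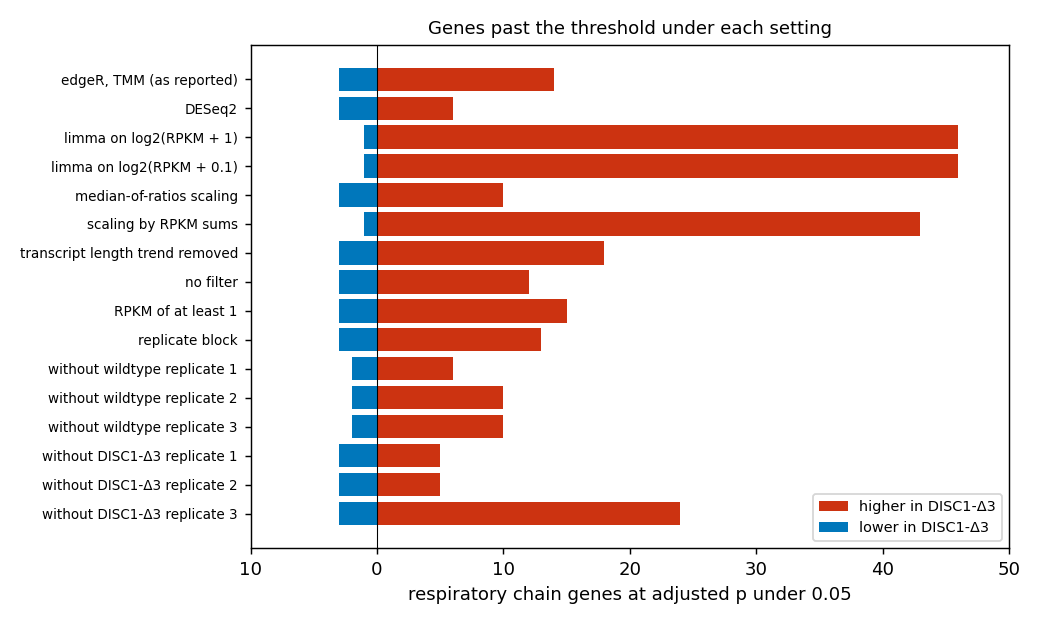
Number of respiratory chain genes at an adjusted p under 0.05 (horizontal axis, higher to the right of 0 and lower to the left) under each setting of the test. The main setting gave 14 and 3, the limma fits 46 and 1, scaling by RPKM sums 43 and 1, DESeq2 6 and 3, and the fits with a library left out 5 to 24 higher. Of all tested genes, which are not shown, 39.9% passed in the main setting, 42.4% with scaling by RPKM sums and 33.4% with DESeq2.

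Genes around the chain were counted from lists, each given with its tested members. Of 38 other subunits and assembly factors outside the name pattern, 3 were higher and 2 lower (13.2% beside the background of 39.9%, median log2 fold change 0.07). The higher ones were Ttc19, a complex III factor, at 0.55 (edgeR adjusted p = 0.000475), Coa6 at 0.40 and Tmem70 at 0.28, and the lower ones Higd2a at -0.19 and Coa5 at -0.17. Some reads of Ttc19 were divided between genes in the deposited counts, so its value is uncertain. Of 17 genes of electron carriers and ubiquinone synthesis, 3 were higher and 2 lower (29.4%). Cycs, cytochrome c, had an RPKM of 19.96, 20.34 and 21.63 in wildtype and of 25.57, 27.57 and 27.15 in DISC1-Δ3 libraries, a log2 fold change of 0.29 (adjusted p = 0.000584). Its groups did not overlap, and Coq5 at 0.31 moved the same way, while Coq8a at -0.31 and Etfb at -0.21 were lower.

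Upstream of the chain, 3 of 13 TCA cycle genes were higher and 1 lower, and 5 of 13 genes of pyruvate entry were higher and 1 lower. These shares of 30.8% and 46.2% lie near the background of 39.9%. With scaling by RPKM sums 7 and 6 were higher and 0 of either list lower. That scaling also moved all 13792 tested genes, to 4092 higher and 1753 lower with a median of 0.09. Idh3a, the catalytic subunit of the NAD-dependent isocitrate dehydrogenase, was higher by 0.36 (edgeR adjusted p = 0.000107) and its partner subunit Idh3g was lower, at -0.19. Citrate synthase, Cs, had 0.06 (adjusted p = 0.279). The pyruvate dehydrogenase genes Pdha1 and Dlat were both higher by 0.29, and Pdk1, a kinase that inhibits this enzyme, was lower, at -0.23. In glycolysis 3 of 17 genes were higher and 5 lower (47.1%), a balance that turned to 8 higher and 2 lower with scaling by RPKM sums. The largest changes there were Eno2, the neuronal enolase, at 0.69 and Hk2 at -0.28, while Gapdh had -0.08 (adjusted p = 0.128). Neuronal markers were higher in the DISC1-Δ3 libraries too, and their part in the value of Eno2 was not tested.

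Regulators and other mitochondrial genes were tested in the same fit, with 11.8% of the regulators, 42.9% of the carriers and 11.1% of the antioxidant enzymes past the threshold beside the same background. Of 17 regulators of mitochondrial biogenesis, Pprc1 was higher at 0.25 and Ppargc1b lower at -0.69, and the 15 others did not pass, among them Ppargc1a at 0.24 (edgeR adjusted p = 0.0975), Nrf1 at 0.17 (adjusted p = 0.0616) and Tfam at -0.03 (adjusted p = 0.820). Ppargc1b was near the lower limit of testing, with a mean RPKM of 0.850 in wildtype and of 0.590 in DISC1-Δ3 libraries. Of 14 membrane carriers 5 were higher, with Slc25a12 at 0.31 and Slc25a4, an ADP/ATP carrier, at 0.21, and 1 was lower. This was Ucp2, an uncoupling protein family member, whose RPKM was 853.21, 899.38 and 906.95 in wildtype against 564.22, 608.54 and 582.32 in DISC1-Δ3 libraries, a log2 fold change of -0.68 (adjusted p = 1.38e-09). Microglial markers (10 of 10) were lower in the DISC1-Δ3 libraries too, and their part in the value of Ucp2 was not tested. Of 9 mitochondrial antioxidant enzymes 1 was lower, Gpx1 at -0.29, and Sod2 had 0.16 (adjusted p = 0.0552).

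Other large machines of the cell gave a scale for these counts. Of 78 genes of the mitochondrial ribosome, 4 were higher and 0 lower by edgeR (5.13%), with 9 and 4 at an unadjusted p under 0.05 and a median of 0.04 on the log2 scale. Of 23 genes of mitochondrial protein import, 6 were higher and 0 lower (26.1%, and 7 and 1 at an unadjusted p under 0.05), with a median of 0.09. The cytosolic ribosomal proteins went the other way, with 0 of 77 higher and 54 lower (70.1%, and 1 and 65 at an unadjusted p under 0.05) and a median of -0.18. With scaling by RPKM sums 2 were higher and 25 lower, with a median of -0.09, while 14 mitochondrial ribosome genes and 8 of protein import were higher and the medians of these 3 lists kept their sign. Of all 13792 tested genes 4092 were higher and 1753 lower with that scaling. The difference between these lists and the respiratory chain genes was not tested.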

How the data were processed

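RNA of freshly isolated OPCs from wildtype and DISC1-Δ3 mice, 3 libraries each, was sequenced after oligo(dT) selection and random priming. The authors deposited 1 table of 18211 genes, with expected counts (reads that match several genes are divided between them, 90.2% of the values above 0 being whole within 1e-06) and RPKM (the counts corrected for transcript length and sequencing depth). The submitters' processing notes name Bowtie2 2.2.5 and mm10, while the counting tool, its annotation and its use of strand are not given in the sources used here. The table's 4 columns of group means were left out.

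Expected counts were rounded and fitted with edgeR 4.0.16 (R 4.3.3) by the quasi-likelihood test with TMM factors and genotype as the single term. The 13792 genes that reached an RPKM of 0.5 in 3 or more libraries were tested, with two-sided p-values adjusted by Benjamini-Hochberg and a threshold of 0.05. The biological coefficient of variation was 5.44%. One read was worth 0.0597 to 0.075 CPM, and since no molecular identifiers were used reads may repeat a molecule, so a floor of 3 reads covers counting error only. Summed levels were compared by exact permutation tests (Python 3.11.15, SciPy 1.17.1). Alternatives were DESeq2 1.42.0, limma 3.58.1 on log2(RPKM + 1) and log2(RPKM + 0.1), median-of-ratios scaling, scaling by RPKM sums, removal of the trend with transcript length, no filter, an RPKM of at least 1, the replicate number as a block, and each library left out in turn. Only the edgeR fit with TMM factors, with and without removal of the length trend, was run on simulated counts. The DESeq2 and limma fits and the choice of scaling were not tested in this way.

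The genes and lists were chosen with earlier results of these data known, and the roles of Ndufb4b, Ndufb4c and Ndufa11b were assigned after the table was read. Genes named were the 10 largest rises and falls past the threshold, the most abundant gene of each complex and role, core and catalytic subunits, restricted isoforms with their common counterparts, assembly factors past the threshold and, of each other list, the largest changes and its best known gene. Uqcr11, Ndufaf2, Ndufaf6, Atp5s and the other genes outside this rule were chosen after their values were seen. A gene that the rule names is not reported here and is left out of the plot of fitted changes. Gene coordinates come from the reference gene table of GRCm38.p6, the build that mm10 names, in which all 104 genes were found.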

Additional observations from a re-analysis of the deposited data

How the results depend on the processing

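The count of genes past the threshold (17, 14 higher and 3 lower) was 9 with DESeq2 (6 higher), 47 with both limma fits (46 higher, 1 lower) and 44 with scaling by RPKM sums (43 higher, 1 lower). With a library left out it ran from 8 to 27 in all, from 5 to 24 higher and from 2 to 3 lower. Of all tested genes 39.9% passed in the main fit and 33.4% with DESeq2. With the limma fits 41.7% and 41.5% of them passed, and with scaling by RPKM sums 42.4%. With a library left out their share ran from 31.5% to 45.2%. The median log2 fold change of 0.07 was 0.14 with both limma fits (0.139 with a pseudocount of 1, 0.143 with 0.1) and 0.15 with scaling by RPKM sums, and 0.03 to 0.09 with a library left out (lowest 0.025, highest 0.090). The log2 ratio of summed levels, in RPKM and then in CPM with TMM factors, was 0.110 and 0.0386 for complex I, 0.102 and 0.0331 for II, 0.145 and 0.0528 for III, 0.115 and 0.0137 for IV and 0.136 and 0.0879 for V. The 2 sums differ in library scaling, in the weight of transcript length and, for complexes I and IV, in the untested genes, and the cause was not tested there or for the other alternatives. No call turned its direction in any alternative.

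Libraries of the same number did not visibly deviate together (correlations of 0.0444, 0.0263 and -0.0288). Libraries of unlike number had correlations of -0.0526 to 0.0273. Whether the samples were paired by litter or batch cannot be told from these values. With a replicate block 16 genes passed (13 higher, 3 lower), of which 15 were shared with the fit without it. Ndufa4l2 and Ndufb2 did not pass (adjusted p = 0.0537 and 0.0681) and Cox6a1 did (adjusted p = 0.0382). Genes under an RPKM of about 10 rest on few reads, and their intervals are wide.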
